A study of Mus musculus with 6 samples.

Results

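The 46 genes described here encode proteins of the kinetochore, the spindle assembly checkpoint and the chromosomal passenger complex. They were picked by gene name from the 54532 genes of the deposited count table. To learn what changes in the cerebellum when *Tox3* is deleted from neural cells, RNA was sequenced in bulk from whole cerebella of mice at postnatal day 1. The 3 control libraries came from *Tox3f/f* animals without Cre, and the 3 mutant libraries from *Nestin-cre;Tox3f/f* conditional knockout animals. Both groups therefore carried 2 floxed alleles of *Tox3*, a gene for a nuclear protein of the high mobility group box family. The *Nestin-cre* transgene drives Cre recombinase in neural progenitors and so acts in them and their descendants. It was present in every mutant and in no control animal, so effects of the transgene and of the deletion cannot be told apart.

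The kinetochore is the protein assembly through which a chromosome is held by spindle microtubules during cell division. It is built in layers: nucleosomes that hold the histone variant CENP-A mark the centromere, an inner network called CCAN binds to them, and an outer network of Knl1, the Mis12 complex and the Ndc80 complex reaches the microtubules. Checkpoint proteins collect on kinetochores that lack microtubules and delay anaphase, and the chromosomal passenger complex destabilises wrong attachments. At birth, the main dividing cells of the mouse cerebellum are granule neuron progenitors (GNPs), which form its outer layer.

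Total counts on genes lay between 15391854 and 17178478 per library, and 17505 genes, which held 99.8% of the counts, passed the filter on low counts. All 46 members passed it, with 66 to 5578 counts per library. Levels are given as CPM, the count scaled to a common normalized library total. *Tox3* was counted at 64.3, 63.0 and 64.4 CPM in control 1, 2 and 3 and at 55.3, 63.2 and 59.2 CPM in mutant 1, 2 and 3 (log2 fold change -0.11, SE 0.06, adjusted p = 0.252, edgeR). The count covers the whole gene, whereas the deletion removes part of it, so it does not check the labels, and directions below are those of the labels. Sex was not balanced, since *Xist* was counted at 1983 to 2419 CPM in control 2, control 3 and mutant 2, and the Y-linked gene *Ddx3y* at 68.6 to 94.5 CPM in control 1, mutant 1 and mutant 3. On the second principal component, control 1 (22.7) and mutant 2 (-25.1) stood apart from the other libraries (-5.61 to 7.42). Libraries with *Ddx3y* counts had positive values on it, and those with high *Xist* had negative values. The part of sex in this component was not tested. Cell type markers differed between the groups. All 6 GNP markers were called lower, with a summed level of 897 to 976 CPM in controls and 350.4 to 374 CPM in mutants, as were 4 of 5 granule neuron markers (2657 to 2774 CPM against 1833 to 1954 CPM) and 2 of 3 proliferation markers (816 to 979 CPM against 446 to 542 CPM). Higher calls were made for 3 of 6 Purkinje cell markers (1002 to 1056 CPM against 1474 to 1685 CPM) and 2 of 6 astroglial markers. They were also made for 4 of 5 oligodendrocyte lineage, 2 of 5 meningeal and 1 of 5 microglial markers. The other oligodendrocyte lineage marker was lower at an adjusted p under 0.01 (edgeR), without a call. Of 5 markers of GABAergic progenitors and interneurons, 1 was called lower and 1 higher. Of 5 choroid plexus markers, 1 was called lower. The other 4 had a fitted change above 0, and none of them was called higher. Summed choroid plexus markers ranged from 33.3 CPM in mutant 2 to 766 CPM in mutant 3, with 128 to 195 CPM in controls. The forebrain markers *Emx1* and *Emx2* had at most 5 counts in any library. Fewer dividing cells and less RNA per dividing cell cannot be told apart in bulk tissue, and the part of cell composition in the results below was not tested.

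Most kinetochore and checkpoint genes were expressed at a lower level in the mutant cerebellum. With edgeR's quasi-likelihood test and Benjamini-Hochberg adjustment over all tested genes, 27 of the 46 members were called lower (a log2 fold change under -0.5 with an adjusted p under 0.01), against 3.63% of all tested genes. None was called higher, against 3.03% of all tested genes, and none was with DESeq2. A single member, *Zwint*, was higher at an unadjusted p under 0.05. The adjusted p was under 0.01 without regard to size for 30 members, all of them lower, against 7.24% of tested genes that passed it as lower and 6.55% as higher. The fitted change was below 0 for 45 of the 46 members and for 50.9% of all tested genes. In 39 members, every mutant library lay below every control library, which held for 20.1% of all tested genes. The median log2 fold change was -0.59 over the members and -0.01 over all tested genes. Summed over the 46 members, the level was 1978, 2072 and 1980.2 CPM in control 1, 2 and 3 and 1471, 1500.3 and 1465 CPM in mutant 1, 2 and 3. The groups did not overlap, and the mutant mean was 73.6% of the control mean. Summed over the 45 members without *Zwint*, it was 67.1% of the control mean. The 2 called members nearest the fold threshold were *Hjurp* and *Mis18a*, both at -0.51. *Incenp* and *Ska3*, both at -0.48, fell just short of it. *Ska1*, *Cenpk*, *Cenpi* and *Mis12* passed the fold threshold with adjusted p between 0.0127 and 0.0264. When each library was left out in turn, 17 of the 27 kept their call throughout, and the other 10 lost it without at least 1 library.

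**Figure D1:**
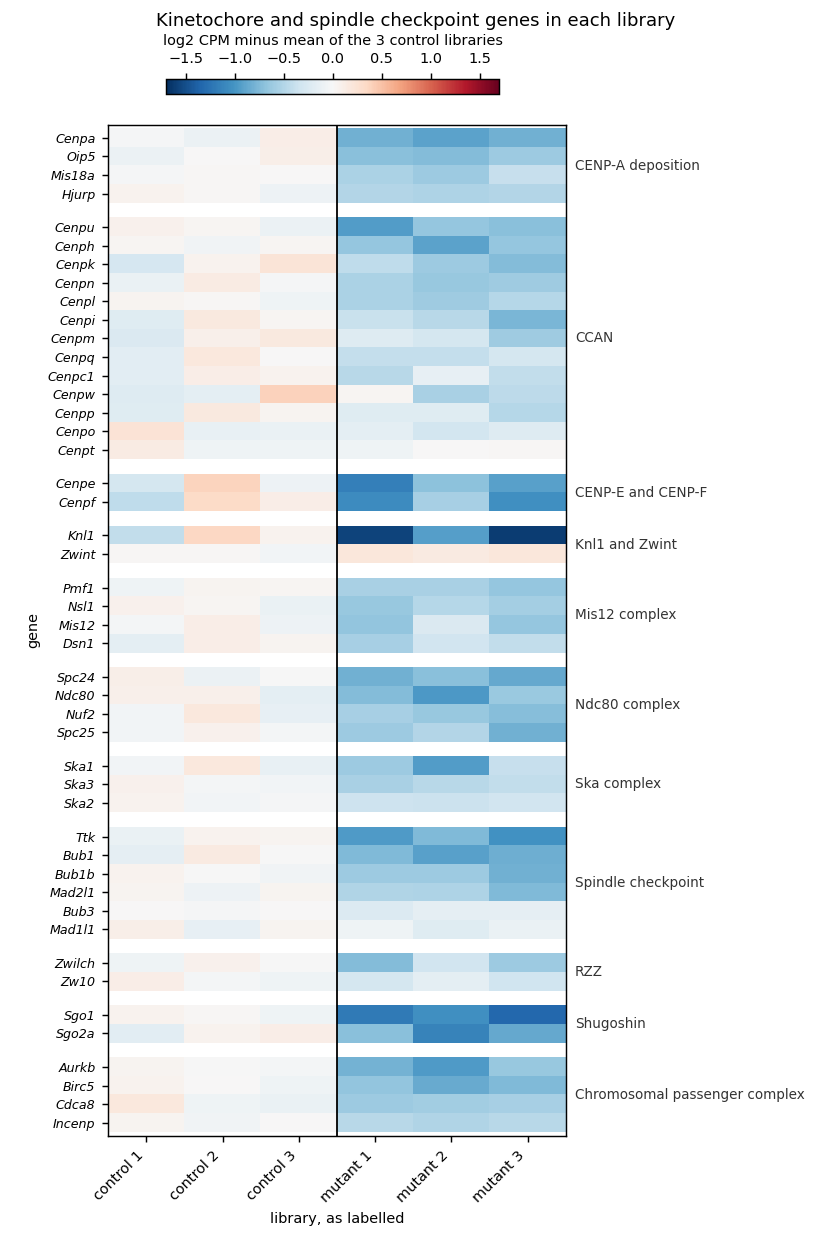
Each cell of the map shows the log2 CPM of 1 gene in 1 library minus the mean of the 3 control libraries, with genes as lines grouped by complex and libraries as columns. Blue marks lower levels, which fill nearly all cells of the 3 mutant columns, while *Zwint* is slightly higher and *Cenpt* is near 0 in all 3.

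The members' promoters were searched for short motifs known from genes with peak expression in mitosis. Genes of this kind often carry a cell cycle genes homology region (CHR) near their start, which is bound by MuvB protein complexes, and upstream CCAAT boxes, which are bound by the factor NF-Y. RefSeq promoter windows of GRCm38.p6, from 250 bases before to 50 bases after a gene's start, were found for 40 of the 46 members. The CHR letters TTTGAA, on either strand, occurred in the windows of 17 of the 40 members (42.5%), of 20.2% of all genes in the table and of 14.3% of the tested genes with a window. Within 50 bases of the start, a region chosen after the matches were seen, they occurred in 14 members (35.0%) and in 5.72% of all genes, or 3.73% of the tested genes with a window. Of these 14, 11 were among the 23 members called lower with a window (47.8%), and 3 were among the 17 not called (17.6%). The sequences below show the 5 members called lower with the largest falls among those 14, and then the 3 that were not called. Capitals mark the CHR letters, or TTCAAA where the match is on the other strand, and each sequence is read along the strand of its gene.
Knl1 (chr2:119047138-119047167, plus strand): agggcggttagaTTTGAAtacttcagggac
Ttk (chr9:83834684-83834713, plus strand): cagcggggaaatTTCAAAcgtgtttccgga
Cenpf (chr1:189688067-189688096, minus strand): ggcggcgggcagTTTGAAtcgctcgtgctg
Cenpa (chr5:30666890-30666919, plus strand): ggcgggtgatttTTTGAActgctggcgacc
Ndc80 (chr17:71526811-71526840, minus strand): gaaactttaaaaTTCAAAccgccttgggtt
Ska3 (chr14:57826160-57826189, minus strand): gcctgcgcaggaTTCAAAtgtgtagcgcgt
Cenpw (chr10:30200548-30200577, minus strand): tccggcggccaaTTCAAAtcgaccactcgg
Bub3 (chr7:131560315-131560344, plus strand): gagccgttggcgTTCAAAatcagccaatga
In the 5 genes called lower the motif begins 2 to 31 bases downstream of the annotated start, and in *Ska3*, *Cenpw* and *Bub3* it begins 14, 25 and 43 bases upstream of it. Called members lay on both sides, since in *Cenpn* it begins 9 bases upstream. CCAAT, on either strand, occurred in 27 of the 40 members (67.5%), in 41.1% of all genes and in 42.4% of the tested genes with a window. The E2F letters TTCCCGC or TTGGCGC occurred in 11 members (27.5%), in 7.79% of all genes and in 13.5% of the tested genes, with 4 matches among the 23 members called lower and 7 among the 17 not called. The E-box letters CAGCTG or CAGATG, the core bound by proteins such as Atoh1, occurred in 14 members (35.0%), in 33.4% of all genes and in 29.5% of the tested genes. E-box matches were found in 7 of the 23 members called lower and 7 of the 17 not called. Within 50 bases of the start, E-box letters occurred in 1 member (2.5%), which was not called. They occurred there in 13.7% of all genes and in 11.5% of the tested genes. A match describes letters only, and binding was not measured here.

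**Figure D2:**
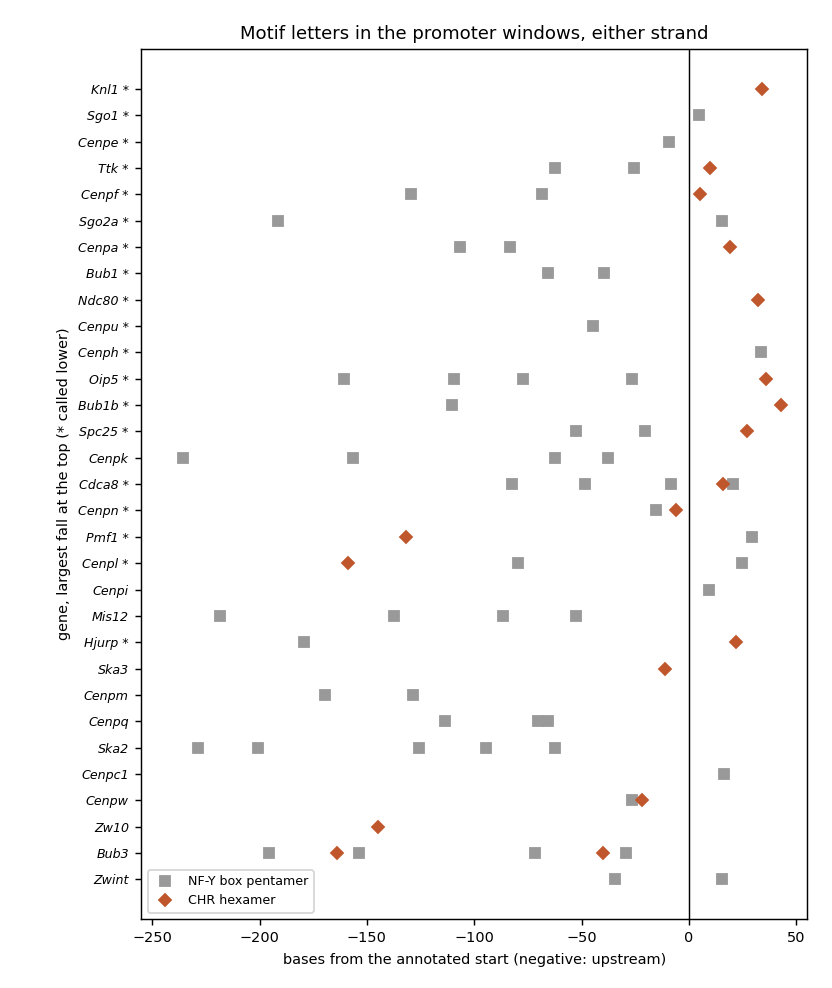
Marks give the position of the CHR hexamer (diamonds) and the NF-Y box pentamer (squares) in bases from the annotated start, for the members with either motif, ordered from the largest fall at the top. Diamonds of genes called lower, which carry an asterisk, mostly lie within 50 bases downstream of the start.

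CENP-A deposition genes were lower in mutants, all 4 of them past the thresholds. *Cenpa* (ENSMUSG00000029177, chr5:30666777-30674830, plus strand), which encodes the centromeric histone itself, was counted at 71.3, 67.5 and 78.1 CPM in control 1, 2 and 3 and at 41.1, 38.4 and 40.9 CPM in mutant 1, 2 and 3. Its 3 mutant values lay close together and well below the lowest control. The log2 fold change was -0.85 (SE 0.07, adjusted p = 4.84e-05), a level of 55.5% of control. *Hjurp*, the chaperone that brings CENP-A to the centromere, was counted at 301, 291 and 272 CPM in controls and at 203, 199.9 and 203 CPM in mutants. The groups were again separate, and the change was smaller, at -0.51 (SE 0.05, adjusted p = 9.17e-05). *Oip5* (-0.69) and *Mis18a* (-0.51), both of the Mis18 complex that prepares centromeres for new CENP-A, had adjusted p of 0.00437 and 0.00368. The calls of 3 of these genes depended on single libraries. *Hjurp* was at -0.48 without control 1 and -0.49 without mutant 2, short of the fold threshold. *Mis18a* missed the call without any library other than mutant 3 (adjusted p 0.0117 to 0.0183), and *Oip5* without any library other than control 1 (adjusted p 0.0122 to 0.0194). In *Oip5*, 9.67% of exon bases overlap *Nusap1* on the opposite strand. Summed over the 6 libraries, *Nusap1* had 536% of the counts of *Oip5*. Whether the counting used strand is not given in the sources used here, so how far such overlaps add to a gene's counts is not known.

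The 13 CCAN genes varied more among themselves, with a median log2 fold change of -0.37 and a range from -0.77 to -0.02. *Cenpu*, *Cenph*, *Cenpn* and *Cenpl* were called lower, against 3.63% of all tested genes. In 8 of the 13, all mutant libraries lay below all controls, which held for 20.1% of all tested genes. *Cenpu*, a subunit of the CENP-O group and a docking site for Polo-like kinase, was counted at 9.50, 9.24 and 8.48 CPM in controls and at 4.67, 5.73 and 5.54 CPM in mutants. The groups did not overlap (log2 fold change -0.77, SE 0.14, adjusted p = 0.00339). In this gene, 26.7% of exon bases overlap *Primpol* on the opposite strand, which had 113% of the counts of *Cenpu*. *Cenpt*, which binds DNA through a histone fold and recruits the Ndc80 complex, was counted at 42.2, 36.5 and 36.5 CPM in controls and at 36.5, 38.6 and 38.8 CPM in mutants. The groups overlapped, and the change of -0.02 (SE 0.08, adjusted p = 0.902) turned to 0.057 without control 1, 0.011 without mutant 1 and 0.000672 with library sizes alone. Its partner *Cenpw* had a change of -0.32 with the widest SE of the members after *Knl1* (0.21, adjusted p = 0.293). It was counted at 8.59, 8.92 and 13.2 CPM in controls and at 10.3, 6.84 and 7.35 CPM in mutants, and the change was -0.53 without mutant 1 and -0.096 without control 3.

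Members of the CENP-H, CENP-I and CENP-K group, which links CENP-A chromatin to the outer layer, lay at -0.74 for *Cenph* (adjusted p = 0.00102), -0.54 for *Cenpi* (0.0158) and -0.60 for *Cenpk* (0.0264). *Cenpn*, which touches the CENP-A nucleosome directly, was at -0.60 (adjusted p = 0.00135), and its partner *Cenpl* at -0.54 (0.00367). *Cenpc1*, the other direct contact of that nucleosome and a binding site for the Mis12 complex, was at -0.34 (0.0484), with the highest mutant (37.9 CPM) above the lowest control (36.8 CPM). *Cenpm* (-0.37), *Cenpq* (-0.37), *Cenpp* (-0.30) and *Cenpo* (-0.24) were not called. The last 2 overlap *Ippk* and *Adcy3* on the opposite strand over 12.3% and 19.0% of their exon bases. *Ippk* had 243% of the counts of *Cenpp*, and *Adcy3* 313% of those of *Cenpo*. The call of *Cenpl* held only without control 3 among the 6 fits that left out 1 library (adjusted p 0.0114 to 0.0166 in the others). *Cenpu* missed it without control 1, control 2, mutant 1 or mutant 3 (adjusted p 0.0112 to 0.0152). Without mutant 1, the median over the 13 genes was -0.53.

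**Figure D3:**
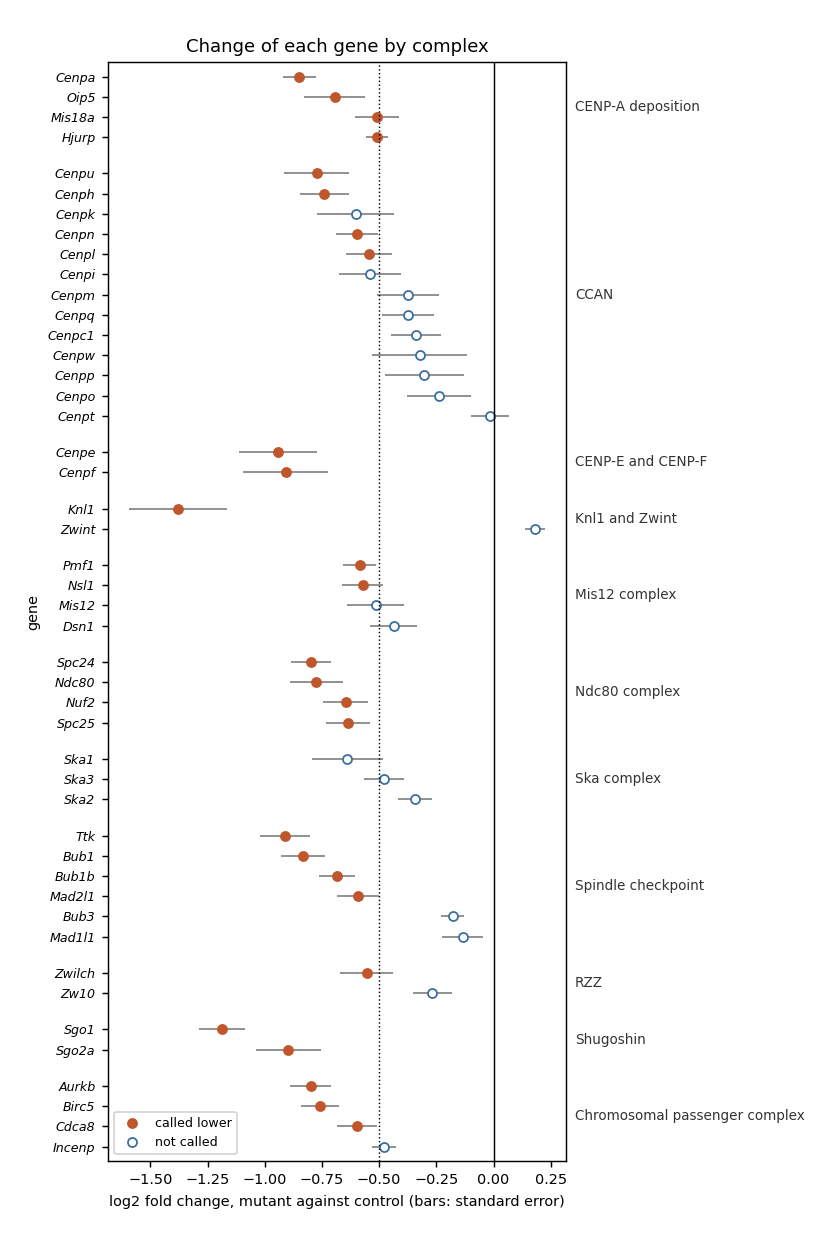
Points give the fitted log2 fold change of each member, mutant against control, with bars of 1 standard error. Filled points are called lower, and the dotted line marks the fold threshold of -0.5. *Knl1* and *Sgo1* lie farthest to the left, and *Zwint* is the only member to the right of 0.

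The outer layer held both extremes of the list. *Knl1* (ENSMUSG00000027326, chr2:119047119-119105501, plus strand), the scaffold on which checkpoint proteins assemble, showed the largest fall of the 46 genes. It was counted at 27.9, 47.4 and 38.8 CPM in controls and at 12.5, 19.4 and 12.1 CPM in mutants. Libraries of both groups spread widely, but the highest mutant stayed below the lowest control. The log2 fold change was -1.38 (SE 0.21, adjusted p = 0.00142), or 38.5% of the control level, and it stayed between -1.62 and -1.19 when each library was left out. With limma-trend on the FPKM values, the adjusted p was 0.0134 with a pseudocount of 1 and 0.0123 with a pseudocount of 0.1, and the call was lost. *Zwint* (ENSMUSG00000019923, chr10:72654845-72674964, plus strand) encodes the protein that binds Knl1 at the kinetochore and is also known as a SNAP25-binding protein of neurons. It was counted at 286, 285 and 273 CPM in controls and at 322, 312 and 323 CPM in mutants. All mutants were above all controls, which held for 20.4% of tested genes. The change of 0.18 (SE 0.04, adjusted p = 0.0137) was not called.

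The Mis12 complex, which joins CCAN to the Ndc80 complex and Knl1, had all 4 genes lower in every mutant library than in every control. *Pmf1* was counted at 47.7, 51.8 and 51.6 CPM in controls and at 34.4, 34.3 and 32.01 CPM in mutants. These groups were far apart for their spread (log2 fold change -0.59, SE 0.07, adjusted p = 0.000406). *Dsn1* was counted at 19.2, 23.2 and 22.3 CPM in controls and at 14.6, 17.1 and 16.1 CPM in mutants, which gave -0.44 (SE 0.10, adjusted p = 0.0125) and no call. *Nsl1* was called at -0.57 (adjusted p = 0.00151), with an adjusted p of 0.0104 without mutant 1. *Mis12* itself was at -0.52 (adjusted p = 0.0127), and without mutant 2, its highest mutant library at 22.9 CPM, it was called at -0.66 (0.00125). In *Mis12*, 7.69% of exon bases overlap *Derl2* on the opposite strand, which had 179% of the counts of *Mis12*.

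All 4 genes of the Ndc80 complex were called lower, and each kept its call when any library was left out. *Spc24*, of the pair that anchors the complex to the inner kinetochore, was counted at 33.6, 29.3 and 31.3 CPM in controls and at 17.8, 19.2 and 17.2 CPM in mutants. The groups did not overlap (log2 fold change -0.80, SE 0.09, adjusted p = 0.000217). Its partner *Spc25* was counted at 33.0, 35.9 and 33.2 CPM in controls and at 22.2, 24.1 and 19.4 CPM in mutants. This was the smallest fall of the 4, at -0.64 (SE 0.10, adjusted p = 0.00114). *Ndc80* and *Nuf2*, whose products bind the microtubule, fell by 0.77 and 0.65 on the log2 scale (adjusted p = 0.00116 and 0.00124). With limma-trend on the FPKM values, *Ndc80* lost its call, with adjusted p of 0.0109 and 0.0105 at pseudocounts of 1 and 0.1.

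None of the 3 genes of the Ska complex, which follows microtubule ends together with the Ndc80 complex, was called, although all 3 had every mutant below every control. *Ska1* was counted at 12.4, 14.5 and 11.8 CPM in controls and at 8.36, 6.65 and 9.84 CPM in mutants. Mutant 3 lay closest to the controls (log2 fold change -0.64, SE 0.16, adjusted p = 0.0140). *Ska2* was counted at 33.5, 31.1 and 31.8 CPM in controls and at 25.2, 25.02 and 25.7 CPM in mutants. Its libraries hardly varied within a group, and the adjusted p of 0.00799 passed at a change of -0.34 (SE 0.07) that was short of the fold threshold. *Ska3* was at -0.48 (adjusted p = 0.00355).

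*Cenpe*, a kinesin that carries chromosomes along microtubules, and *Cenpf*, a large coiled-coil protein that binds microtubules, were both called lower. *Cenpe* was counted at 40.0, 64.1 and 46.6 CPM in controls and at 22.1, 30.2 and 26.0 CPM in mutants. *Cenpf* was counted at 78.4, 133 and 114 CPM in controls and at 50.4, 71.8 and 51.4 CPM in mutants. In both genes control 2 was the highest control, mutant 2 the highest mutant, and the groups did not overlap. The log2 fold changes were -0.94 (SE 0.17, adjusted p = 0.00308) and -0.91 (SE 0.19, adjusted p = 0.00588). *Cenpe* missed the call without control 3, mutant 1 or mutant 3 (adjusted p 0.0107 to 0.0144), and *Cenpf* without control 2, control 3, mutant 1 or mutant 3 (adjusted p 0.0247 to 0.0287). Control 2 and mutant 2 were likewise the highest of their groups in *Knl1* and in the proliferation marker *Mki67*, which was counted at 330.2, 496 and 410.4 CPM in controls and at 154, 221 and 144 CPM in mutants. The annotated exons of these genes are long, from 8542 bases in *Knl1* to 15433 bases in *Cenpf*. The members *Hjurp* (8331 bases) and *Mad2l1* (8390 bases), also over 8 kb, did not share the pattern. In *Hjurp*, control 1 was the highest control and mutant 2 the lowest mutant. In *Mad2l1*, control 2 was the lowest control and mutant 1 the highest mutant. Among tested genes over 8 kb, the median log2 deviation from the group mean was 0.04 in control 2 and mutant 2. It was between -0.028 and -0.0012 in the other libraries. The median of *Cenpe* and *Cenpf* deviated more from the control mean, by 0.35 in control 2 and -0.37 in control 1. Whether length accounts for this pattern was not tested. With a length trend removed from each library, *Cenpe*, *Cenpf* and *Knl1* were at -0.90, -0.83 and -1.34, and all 3 kept their calls. With limma-trend on the FPKM values, *Cenpe* and *Cenpf* lost theirs, with adjusted p of 0.0218 and 0.0367 at a pseudocount of 1 and of 0.0195 and 0.0343 at a pseudocount of 0.1.

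The spindle checkpoint genes divided into 4 that were called lower and 2 that were not. *Ttk* (ENSMUSG00000038379, chr9:83834689-83872389, plus strand), the kinase Mps1 that starts checkpoint signalling, was counted at 17.9, 20.2 and 20.1 CPM in controls and at 9.92, 11.5 and 9.53 CPM in mutants. The groups did not overlap (log2 fold change -0.91, SE 0.11, adjusted p = 0.000331), and the level was 53.2% of control. *Bub1*, a kinase that docks on Knl1, was at -0.83 (adjusted p = 0.000285), *Bub1b*, a component of the inhibitor of the anaphase-promoting complex, at -0.68 (0.000292), and *Mad2l1*, its partner in that inhibitor, at -0.59 (0.00131). All 4 kept their calls when any library was left out, and *Mad2l1* lost its call at -0.48 with a GC trend removed and at -0.45 with log2(FPKM + 1). *Bub3*, which brings Bub1 and Bub1b to Knl1, had every mutant below every control but a small change of -0.18 (SE 0.05, adjusted p = 0.0282). *Mad1l1*, the kinetochore receptor of Mad2l1, was counted at 31.3, 26.6 and 30.2 CPM in controls and at 27.9, 25.3 and 27.0 CPM in mutants. Its groups overlapped, since control 2 lay below mutant 1 and mutant 3 (log2 fold change -0.14, SE 0.09, adjusted p = 0.298).

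Of the RZZ complex, which brings dynein and Mad1l1 to unattached kinetochores, *Zwilch* was called and *Zw10*, which also acts in membrane traffic, was not. *Zwilch* was counted at 20.3, 22.5 and 21.2 CPM in controls and at 12.8, 16.9 and 13.9 CPM in mutants. *Zw10* was counted at 36.9, 33.1 and 32.3 CPM in controls and at 27.7, 30.2 and 27.0 CPM in mutants. Neither gene overlapped between the groups. The changes were -0.56 (SE 0.11, adjusted p = 0.00617) and -0.27 (SE 0.09, adjusted p = 0.0451). The call of *Zwilch* was lost without any library other than mutant 2 (adjusted p 0.0138 to 0.0290), and with the level of Y-linked genes as a covariate the change of -0.49 was short of the fold threshold.

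Both shugoshin genes were called lower. *Sgo1* (ENSMUSG00000023940, chr17:53674786-53689333, minus strand), which protects centromeric cohesin until anaphase, was counted at 24.9, 24.3 and 22.7 CPM in controls and at 10.4, 11.7 and 9.47 CPM in mutants. Libraries within each group were close, and the groups were far apart. The log2 fold change of -1.19 (SE 0.10, adjusted p = 4.84e-05) left 43.9% of the control level, and it stayed between -1.26 and -1.12 when each library was left out. *Sgo2a* was counted at 12.04, 14.3 and 14.7 CPM in controls and at 8.31, 6.19 and 7.47 CPM in mutants. It too had no overlap (log2 fold change -0.90, SE 0.14, adjusted p = 0.00150). The call was lost with limma-trend on the FPKM values, with adjusted p of 0.0170 and 0.0167 at pseudocounts of 1 and 0.1. In *Sgo2a*, 35.0% of exon bases overlap *Kctd18* on the opposite strand, the largest share among the members. *Kctd18* had 390% of the counts of *Sgo2a*.

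In the chromosomal passenger complex, the kinase gene *Aurkb* fell most and the scaffold gene *Incenp* least. *Aurkb* was counted at 53.1, 51.0 and 50.02 CPM in controls and at 29.5, 26.3 and 32.8 CPM in mutants. The groups did not overlap (log2 fold change -0.80, SE 0.09, adjusted p = 0.000217). *Incenp* was counted at 100.2, 93.2 and 96.8 CPM in controls and at 70.1, 68.2 and 69.8 CPM in mutants. Its change of -0.48 (SE 0.05, adjusted p = 0.000198) was short of the fold threshold, and without control 2 it was called at -0.51. The genes of survivin, *Birc5* (-0.76, adjusted p = 0.000198), and borealin, *Cdca8* (-0.60, adjusted p = 0.00102), which target the complex to centromeres, were called lower. Without control 1, *Cdca8* was at -0.4998, just short of the fold threshold.

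Levels of different genes were compared in FPKM, the deposited value per gene length. The length counts all annotated exons of a gene and can exceed that of any single transcript. For *Cenpo* it was 7263 bases, against 4348 bases in its longest transcript. Ranks between genes depend on this length. Among controls, the members ranged from 1.24 ± 0.18 FPKM for *Cenpo* to 62.9 ± 1.7 FPKM for *Zwint* (SD, n = 3), with a median of 7.17 FPKM. *Hjurp* (34.2 ± 1.7 FPKM), *Incenp* (29.8 ± 1.1 FPKM) and *Aurkb* (17.3 ± 0.5 FPKM) followed *Zwint*. The next 5 genes, *Bub3*, *Bub1b*, *Pmf1*, *Cenpa* and *Spc24*, lay between 12.1 and 12.8 FPKM and did not differ beyond their SDs, which reached 0.91 FPKM. Apart from *Zwint*, *Hjurp* and *Incenp* also held the highest mutant levels, at 24.2 ± 0.4 and 21.5 ± 0.4 FPKM. Subunits of the Ndc80 complex did not have equal levels on this scale, with 3.42 ± 0.34 FPKM for *Ndc80* and 12.1 ± 0.8 FPKM for *Spc24* in controls. Without division by length their control means were closer, at 22.4 and 31.4 CPM.

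**Figure D4:**
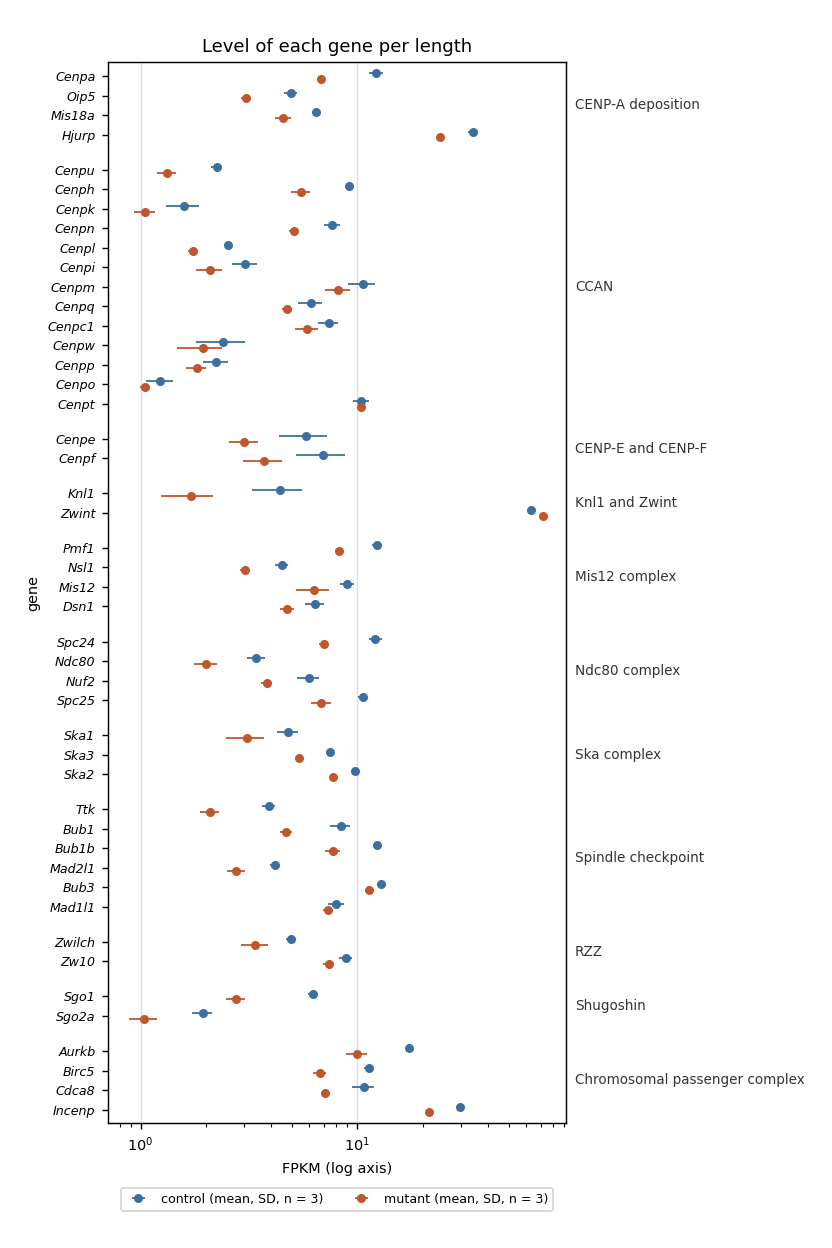
Points give the mean FPKM of each member in the 3 control (blue) and 3 mutant (orange) libraries on a log axis, with bars of 1 SD. The members span from about 1 FPKM to the 62.9 FPKM of *Zwint* in controls, and mutant points lie to the left of control points for every member but *Zwint*.

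Other proteins that act at kinetochores were followed through 2 lists. Of 28 kinetochore partners (nucleoporins, motors, kinases and assembly factors), 11 were called lower and none higher, against 3.63% and 3.03% of all tested genes. Their median log2 fold change was -0.48, and no partner was higher at an unadjusted p under 0.05 or called higher with DESeq2. The smallest p were those of *Kntc1*, the third subunit of RZZ (-0.90, SE 0.09, adjusted p = 9.54e-05), and the nucleoporin gene *Seh1l* (-0.54, SE 0.05, adjusted p = 0.000133). The largest p were those of *Clasp2* and *Ckap5*, microtubule-binding proteins with roles outside mitosis, whose changes of -0.00 and -0.02 turned positive under other settings. The anaphase-promoting complex (APC/C) is the ubiquitin ligase that the checkpoint restrains. Of 21 genes of the APC/C and its regulators, 4 were called lower, against 3.63% of all tested genes. These were *Cdc20*, its mitotic activator (-0.84, adjusted p = 3.57e-05), *Espl1*, which encodes separase (-0.80, adjusted p = 0.000105), *Ube2c*, its ubiquitin-conjugating enzyme (-0.94, adjusted p = 0.000138), and *Fbxo5*, an inhibitor (-0.70, adjusted p = 0.000347), the last of which was named after its value was seen. None of the 14 core subunits was called in either direction, and 13 of them had a change below 0, against 50.9% of all tested genes. An absence of calls among 14 subunits is near the background of 3.63% called lower and 3.03% called higher. None was higher at an unadjusted p under 0.05, and *Cdc23* (-0.21, adjusted p = 0.0394) and *Anapc13* (-0.19, adjusted p = 0.0958), named after their values were seen, were lower at it. Their median change was -0.08, with a range from -0.21 to 0.05.

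**Figure D5:**
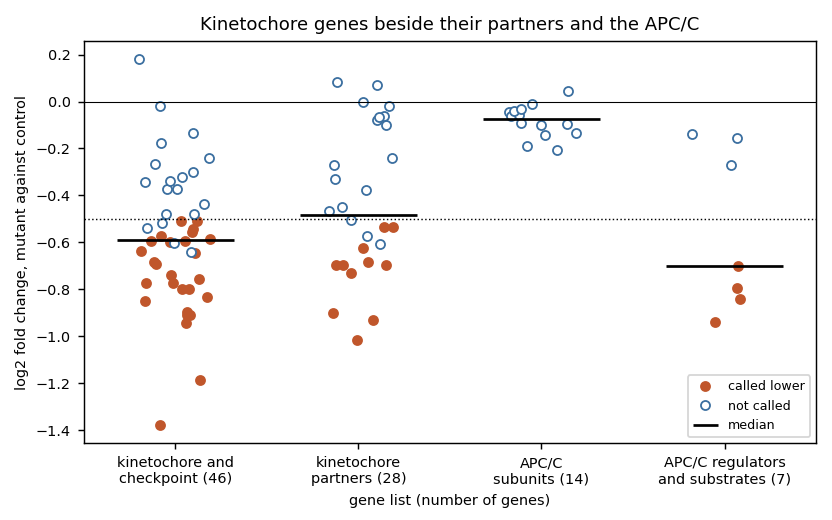
Points give the fitted log2 fold change of each gene in 4 lists, with filled points called lower, lines at the medians and the dotted line at the fold threshold of -0.5. The 14 APC/C subunits lie close to 0, between -0.21 and 0.05, while the 46 kinetochore and checkpoint genes centre at -0.59.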

How the data were processed

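Poly-A RNA was sequenced in 6 libraries of cerebellum taken at postnatal day 1, and groups were taken from the labels. The authors aligned reads to mm10 with HISAT2 2.0.5 and deposited counts per gene from featureCounts 1.5.0-p3, as the submitters' processing notes name them. Beside the counts, the authors deposited FPKM, which divides them by gene length and library total. The annotation release and strand setting are not given in the sources used here.

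Counts of all genes were filtered with filterByExpr, scaled with TMM and tested with glmQLFTest in edgeR 4.0.16 (R 4.3.3). A call needed a Benjamini-Hochberg adjusted p under 0.01 together with an absolute log2 fold change over 0.5. The common dispersion was 0.0105. CPM are counts relative to the TMM-scaled library total. No list was tested, and medians, shares and FPKM are descriptions. The labels of 3 against 3 libraries cannot give a two-sided permutation p under 0.1, so p-values rest on the fitted model. They set the difference between the groups against the modelled variation between these libraries. Whether each library came from a single animal is not given in the sources used here. As a check for a library deposited more than once, counts of same-group libraries were compared, and none agreed within counting noise (chi-square per gene 3.63 to 10.0).

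The members and lists were chosen with earlier results of these data known. Values in every library are given for the members with the lowest and highest fitted change in each complex. Genes that are not members were limited to *Tox3*, *Atoh1*, *Mki67*, *Top2a* and, in each pathway list, the 3 with the smallest and 2 with the largest p, apart from those marked and from genes that are not reported here. Forebrain markers and sex genes are named as checks of the tissue and the libraries. Exon overlaps were taken from the GRCm38 annotation. Alternatives were DESeq2 1.42.0, other scalings and filters, the replicate number as a block, a Y-linked covariate, limma-trend (3.58.1) on FPKM with pseudocounts of 1 and 0.1, a looser threshold and each library left out. Trends with gene length and GC content were removed in alternatives chosen after seeing the data.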

Additional observations from a re-analysis of the deposited data

How the results depend on the processing

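The count of members called lower was 28 with the replicate number as a block, 30 with DESeq2, 24 with the GC trend removed, 15 with limma-trend on log2(FPKM + 1) and 19 to 24 when each library was left out, against 27. Of the 27, 13 were called in all 17 refits. With an adjusted p under 0.05 and no fold threshold, 1 member was higher (*Zwint*), 18 partners were lower, and 2252 genes were lower and 2136 higher, against 635 and 530. With log2(FPKM + 1) these were 388 and 281, with log2(FPKM + 0.1) 335 were higher, and 349 to 569 were higher without each library, the lowest without mutant 3. The block changed no median or list count by over 1.5 times. The replicate numbers do not pair the animals by their labels, and deviations of same-numbered libraries correlated at 0.29, 0.33 and -0.17. Among members, the block added the call of *Mis12* and ended none.

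The members' median was -0.47 with log2(FPKM + 1), -0.53 with the GC trend removed and -0.61 to -0.55 without each library. With log2(FPKM + 1), the medians were -0.52 for CENP-A deposition, -0.40 for Knl1 and Zwint, -0.56 for the Ndc80 complex, -0.74 for shugoshin and -0.60 for the chromosomal passenger complex. With the GC trend removed they were -0.61 for the Ndc80 complex and -0.93 for shugoshin. Without each library the CCAN median ran from -0.53 to -0.38 and that of the chromosomal passenger complex from -0.72 to -0.61.

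Changes near 0 turned positive. *Cenpt* was 0.000672 with library sizes alone and -0.054 to 0.057 without each library. *Ckap5* was 0.025 with the Y-linked covariate, 0.022 and 0.056 with the length and GC trends removed, and -0.081 to 0.027 without each library. *Clasp2* was 0.0039 with DESeq2, 0.0035 with its size factors, 0.016 with library sizes, 0.0019 without a filter, 0.0026 with at least 10 counts in every library, 0.046 with the Y-linked covariate, 0.0020 with both FPKM pseudocounts, 0.076 and 0.066 with the length and GC trends removed, and -0.063 to 0.052 without each library. *Cdc26* was 0.0070 with the GC trend removed and -0.090 to 0.0093 without each library, and *Anapc2* 0.0077 with library sizes and -0.036 to 0.012. The cause of these shifts was not tested.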

Other observations

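Ratios of FPKM between partners of one complex were computed after the values were seen. The ratio of *Knl1* to *Zwint* was 0.0505, 0.0863 and 0.0738 in control 1, 2 and 3 and 0.0202, 0.0322 and 0.0194 in mutant 1, 2 and 3, a mutant mean of 34.1% of the control mean. The ratio of *Bub1* to *Bub3* was 0.654 ± 0.071 in controls and 0.415 ± 0.038 in mutants, and that of *Mad2l1* to *Mad1l1* was 0.522 ± 0.018 and 0.380 ± 0.042 (SD, n = 3). No library of one group overlapped the other in these 3 ratios. The ratio of *Zwilch* to *Zw10* (0.562 ± 0.062 against 0.457 ± 0.044) and that of *Cenpw* to *Cenpt* (0.234 ± 0.072 against 0.188 ± 0.050) overlapped between the groups.

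Across the 46 members, the log2 fold change was only weakly related to the control FPKM (Spearman's rho 0.14) and to gene length (-0.21), over genes that share the same 6 libraries.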
